A study of Mus musculus with 8 samples.

Results

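The genes described here encode 9 transcription factors of the AP-1 and immediate early group, most of them switched on soon after a growth signal: the FOS family members Fos, Fosb, Fosl1 and Fosl2, the JUN family members Jun, Junb and Jund, and the factors Egr1 and Atf3. They were taken by name, with every probe set that the platform annotation assigns to one of these symbols and to no other gene. This gave 13 probe sets of the 45037 analysed, and 9 of the 18193 genes with a named probe set. Fosl1, Fosl2, Jun and Jund have 2 probe sets each and the other 5 genes have 1. In this text the probe set with the higher mean level stands for its gene, and the other one is named as such.

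RNA was profiled on 8 single-colour Affymetrix arrays from 4 mouse epithelial cell lines. EpH4 and NMuMG come from mammary gland, and mProx and MCT come from kidney; EpH4 is labelled EMT-resistant, EMT being the epithelial-mesenchymal transition, in which epithelial cells take on fibroblast-like features. Each line gave 1 resting array and 1 array after 24 h with recombinant human TGF-β1 and EGF, each at 3 ng/mL. Both groups had first been kept for 24 h in serum-free medium with insulin and transferrin, which the resting cells continued without the 2 factors. Each group is 4 arrays, 1 a line, and no label names separate cultures, so the line is the replicate and error values describe the spread between lines.

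AP-1 is a dimer of basic leucine zipper proteins. FOS proteins do not pair with each other and need a JUN partner, while JUN proteins can also pair among themselves and with ATF proteins. The pairs bind short DNA elements in many genes of growth, adhesion and matrix breakdown. EGF raises Fos and Egr1 transcripts within minutes through ERK kinases and the serum response factor, and these transcripts decay quickly, whereas Fosl1 responds later and lasts longer under sustained ERK signalling. TGF-β acts through SMAD proteins that bind DNA together with AP-1, and Junb is a classical SMAD-responsive gene. An array taken 24 h after the stimulus therefore reads the late state and not the early peak.

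Levels are given as log2(signal + 10.6) after quantile normalization, and a change is the stimulated minus the resting level of a line on that log2 scale. Levels under 5.27, the bottom 40% of probe sets by mean level, are called dim and their changes are not exact. Before normalization the arrays did not share a scale: median signals ran from 41.5 to 59.6. On the values as deposited, the median change of all genes was -0.28 in EpH4, 0.35 in NMuMG, -0.11 in mProx and -0.25 in MCT. Cdh16, a kidney cadherin gene, had resting levels of 12.23 in mProx and 10.80 in MCT against 4.24 in EpH4 and 5.33 in NMuMG. The kidney epithelial marker Pax8 stood at 10.90 and 9.66 against 5.78 and 5.25 in the same order. Proximal tubule markers did not separate the tissues by count, with 5 of 7 above dim at rest in each line. Among them Aqp1 stood at 12.84 in resting mProx and a dim 5.07 in resting MCT. The E-cadherin gene Cdh1 was dim on the 4 arrays of mProx and MCT, where 4 and 5 of 7 epithelial markers, Krt8 and Krt18 among them, were above dim. The mammary genes Elf5 and Csn2 were dim on all 8 arrays, with 2 to 4 of 6 mammary luminal markers above dim per array. Dim on all 8 arrays were also Ptprc of leukocytes and Pecam1 of endothelium. Other markers of these types were above dim, 2 to 3 of 4 leukocyte and 0 to 2 of 4 endothelial markers per array. Of 7 fibroblast markers, 5 in EpH4, 4 in NMuMG, 5 in mProx and 2 in MCT were above dim at rest, and 5, 6, 6 and 2 after stimulation. In mProx, Dcn went from 10.56 to 7.53 and Col1a1 from a dim 4.68 to 6.50. Col1a1 was higher after stimulation in each of the 4 lines, though still dim in MCT. Each of the other fibroblast markers was higher in some and lower in others. Col3a1 went from 5.82 to 5.66 in EpH4, from 6.92 to 6.20 in mProx, from 5.91 to a dim 5.25 in MCT and from a dim 4.87 to 5.75 in NMuMG. What these markers contribute to the values below was not tested.

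All 9 genes passed the filter on low values, and none passed limma's test of the response, either in the 4 lines or in the 3 lines not marked as resistant. Over 12570 tested genes the test called 0 (0%) in the 4 lines and 14 (0.111%) in the 3 lines. At an unadjusted p under 0.05, Fosl1 and Junb were the 2 members reached in both comparisons, against 1453 genes (11.6%) and 1555 genes (12.4%) of all tested. Fosl1 and Junb were also the 2 members higher in each of the 4 lines, a pattern shown by 10.3% of all genes. With Atf3 they were the 3 members higher in each of mProx, MCT and NMuMG, where 18.6% of all genes were. The median change of the 9 members was 0.18 in the 4 lines and 0.24 in the 3 lines, beside 0.01 for all tested genes in both.

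**Figure D1:**
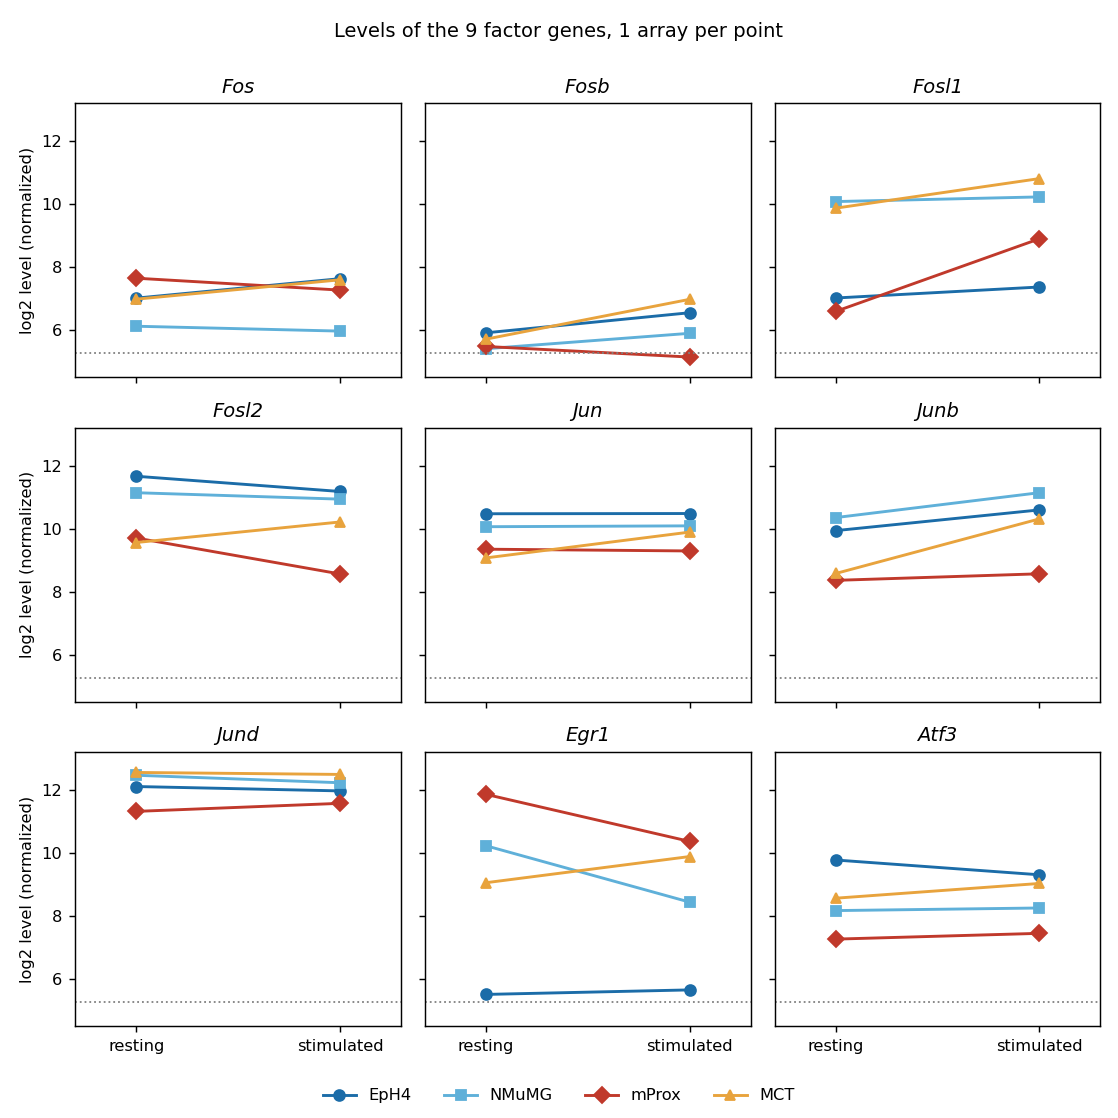
Normalized log2 level (vertical axis) of the probe set that stands for each of the 9 genes, on the resting and stimulated array of each line (1 array per point, lines join arrays of 1 cell line, dotted line: level under which a probe set is called dim). Fosl1 in mProx goes from 6.60 to 8.90, Junb in MCT from 8.57 to 10.31, and Egr1 in EpH4 stays near the dotted line at 5.51 and 5.65.

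Of the FOS family, Fosl1, which encodes FRA-1, a FOS protein without the strong activation domain of c-FOS, had the widest spread of levels. At rest it stood at 10.08 in NMuMG and 9.87 in MCT, and at 7.02 in EpH4 and 6.60 in mProx. After stimulation it stood at 10.23 in NMuMG, 10.81 in MCT, 7.37 in EpH4 and 8.90 in mProx. NMuMG and MCT were therefore high in both states, EpH4 was low in both, and mProx stood between the 2 ranges after stimulation. On the deposited linear scale the mProx signal went from 104 to 509, a normalized increase of 4.94-fold. The changes were 2.30 in mProx, 0.94 in MCT, 0.35 in EpH4 and 0.15 in NMuMG, a mean of 0.93 ± 0.97 (SD, n = 4). In limma this had an SE of 0.32 and an adjusted p of 0.326, and in the 3 lines the change was 1.13 with an SE of 0.36 (adjusted p = 0.295). Without mProx the change was 0.48 in the 4 lines and 0.54 in the 3 lines (adjusted p = 0.455 and 0.432). On the values as deposited the test called Fosl1, with a change of 0.88 in the 4 lines (adjusted p = 0.0114) and 1.14 in the 3 lines (adjusted p = 0.00628). In that setting, where the arrays share no scale, it called 236 of 12573 genes in the 4 lines and 210 in the 3 lines.

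The other Fosl1 probe set gave the same order in the kidney lines but not in EpH4. It was higher by 1.84 in mProx, from 5.31 to 7.14, by 1.20 in MCT, from 7.82 to 9.02, and by 0.14 in NMuMG, from 7.93 to 8.07. In EpH4 the change was -0.25, from 5.99 to 5.74, so the sign of the Fosl1 change in that line depends on the probe set. Both probe sets placed NMuMG and MCT above EpH4 and mProx at rest.

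Fosl2, which encodes FRA-2, was highest in the mammary lines. Resting levels were 11.66 in EpH4, 11.14 in NMuMG, 9.70 in mProx and 9.56 in MCT, and stimulated levels were 11.18, 10.93, 8.56 and 10.21 in the same order. The kidney lines, alike at rest, thus stood apart after stimulation. The change was -1.14 in mProx and 0.65 in MCT, with -0.48 in EpH4 and -0.20 in NMuMG, where the values as deposited gave 0.15. The mean of -0.29 ± 0.74 (SD, n = 4) did not pass limma (adjusted p = 0.679), and without mProx the 3-line change of -0.23 became 0.22. The other Fosl2 probe set showed little of this, with changes of -0.21 in EpH4, 0.02 in NMuMG, -0.05 in mProx and 0.16 in MCT.

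In mProx, Fosl1 and Fosl2 had opposite signs, with changes of 2.30 and -1.14. In MCT both were higher, by 0.94 and 0.65. The lower Fosl2 level in mProx rests on 1 of the 2 Fosl2 probe sets and on 1 array per condition.

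Fos, the founding immediate early gene of the family, had modest levels on all 8 arrays. At rest they were 7.65 in mProx, 7.02 in EpH4, 6.98 in MCT and 6.13 in NMuMG, and after stimulation 7.27, 7.63, 7.60 and 5.97. EpH4 and MCT were each higher by 0.62 and 0.61, and mProx and NMuMG had changes of -0.38 and -0.15, the last turning to 0.03 on the values as deposited. The 4-line mean was 0.18 ± 0.52 (SD, n = 4; limma adjusted p = 0.790).

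Fosb, another early FOS gene, had levels near the dim limit in NMuMG and mProx. It went from 5.72 to 6.98 in MCT, from 5.92 to 6.55 in EpH4, from 5.41 to 5.90 in NMuMG, and from 5.48 to a dim 5.15 in mProx. The increase in MCT was 2.40-fold. The 4-line mean of 0.51 ± 0.66 (SD, n = 4) had an SE of 0.28 and did not pass limma (adjusted p = 0.531).

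Of the probe sets that stand for the JUN family, that of Junb alone was higher after stimulation in each of the 4 lines. Its protein is a JUN partner that often restrains c-JUN. Resting levels were 10.35 in NMuMG, 9.93 in EpH4, 8.57 in MCT and 8.36 in mProx, and stimulated levels were 11.14, 10.59, 10.31 and 8.56. The increase was 1.73 in MCT, or 3.32-fold, 0.79 in NMuMG, 0.66 in EpH4 and 0.21 in mProx. At rest the kidney lines lay below both mammary lines, and after stimulation both remained below them, MCT at 10.31 and mProx at 8.56. The mean change was 0.85 ± 0.64 (SD, n = 4). Its SE in limma was 0.22, and the adjusted p was 0.230 in the 4 lines and 0.261 in the 3 lines. The values as deposited gave 0.78 in the 4 lines with an adjusted p of 0.0251, and 0.91 in the 3 lines with one of 0.0661. In that setting limma called 236 of 12573 genes in the 4 lines and 210 in the 3 lines. Without MCT the change was 0.55 in the 4 lines and 0.50 in the 3 lines (adjusted p = 0.518 and 0.509).

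Jun, which encodes c-JUN, was nearly level in 3 of the lines. It stood at 10.47 and 10.48 in resting and stimulated EpH4, at 10.06 and 10.09 in NMuMG, at 9.35 and 9.29 in mProx, and at 9.07 and 9.89 in MCT. The change in MCT was 0.82, or 1.76-fold, beside 0.01 in EpH4, 0.03 in NMuMG and -0.06 in mProx. On the values as deposited the EpH4 change was -0.27, close to the shift of all genes in that line. The other Jun probe set also had its largest change in MCT, 0.78, with 0.37 in mProx, 0.10 in NMuMG and -0.20 in EpH4. The mean of 0.20 ± 0.41 (SD, n = 4) did not pass limma (adjusted p = 0.661), and without MCT it was -0.0071.

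Jund, the JUN gene that most cells express constitutively, had the smallest spread of changes among the 9 members. Levels at rest were 12.55 in MCT, 12.47 in NMuMG, 12.11 in EpH4 and 11.32 in mProx, and after stimulation 12.49, 12.23, 11.97 and 11.57. Changes ran from -0.24 in NMuMG to 0.26 in mProx, with -0.14 in EpH4 and -0.06 in MCT. Those of NMuMG, on the values as deposited, and of MCT, with arrays scaled to a common trimmed mean, turned to 0.07 and 0.04. The mean was -0.05 ± 0.21 (SD, n = 4; limma adjusted p = 0.883). The other Jund probe set was near the dim level on all arrays and under it in resting mProx, between 4.58 and 5.93. It was higher in each line, by 0.18 in EpH4, 0.07 in NMuMG, 0.73 in mProx and 0.07 in MCT.

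Junb, Jun, Fosb, Fosl2, Egr1 and Atf3 had their largest increase in MCT, and the DNA just upstream of the 5 of these with an entry in the promoter table is shown here. The share of all genes with their largest increase in MCT was not computed, so this only chooses the sequences printed. The sequences are RefSeq promoters of assembly GRCm38.p6, 250 bases before the gene start, 5′ to 3′ on the gene's strand. Capitals mark matches, on either strand, to TGACG, the core of the cAMP response element (CRE) bound by ATF and JUN proteins, or to TGACNTCA, a CRE in which the base N is free.
Junb (chr8:84978749-84978998, reverse strand): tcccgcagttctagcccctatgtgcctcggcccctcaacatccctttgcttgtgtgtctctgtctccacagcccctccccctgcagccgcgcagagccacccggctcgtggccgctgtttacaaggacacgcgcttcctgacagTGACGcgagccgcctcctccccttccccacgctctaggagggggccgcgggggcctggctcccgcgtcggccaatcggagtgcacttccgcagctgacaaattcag
Jun (chr4:95052223-95052472, reverse strand): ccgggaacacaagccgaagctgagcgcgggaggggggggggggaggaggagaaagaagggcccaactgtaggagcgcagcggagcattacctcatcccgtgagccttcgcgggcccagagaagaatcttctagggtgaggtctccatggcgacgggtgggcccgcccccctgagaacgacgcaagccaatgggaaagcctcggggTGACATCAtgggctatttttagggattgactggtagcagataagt
Fosb (chr7:19310046-19310295, reverse strand): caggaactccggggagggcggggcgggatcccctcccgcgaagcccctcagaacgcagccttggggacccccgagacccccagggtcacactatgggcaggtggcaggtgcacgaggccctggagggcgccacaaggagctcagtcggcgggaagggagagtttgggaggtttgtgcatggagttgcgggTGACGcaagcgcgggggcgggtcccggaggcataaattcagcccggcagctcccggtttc
Fosl2 (chr5:32136222-32136471, forward strand): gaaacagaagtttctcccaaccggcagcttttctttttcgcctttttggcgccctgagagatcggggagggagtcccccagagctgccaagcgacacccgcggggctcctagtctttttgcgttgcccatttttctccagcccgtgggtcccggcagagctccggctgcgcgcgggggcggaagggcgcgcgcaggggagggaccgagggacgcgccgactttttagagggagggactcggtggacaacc
Atf3 (chr1:191183334-191183583, reverse strand): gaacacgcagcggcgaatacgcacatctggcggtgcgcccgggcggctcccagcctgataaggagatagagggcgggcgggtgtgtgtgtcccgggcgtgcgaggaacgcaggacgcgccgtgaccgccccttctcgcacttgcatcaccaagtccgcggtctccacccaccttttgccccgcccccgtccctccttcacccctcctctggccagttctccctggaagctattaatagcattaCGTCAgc
Promoters of 7 of the 9 members are in the table, Fosl1 and Egr1 having no entry. On both strands of these 7, the AP-1 element TGANTCA, the full CRE TGACGTCA, the SMAD element GTCTAGAC and the CArG box of serum response factor had 0 matches, against 6.75%, 1.55%, 0.167% and 1.47% of 32851 promoters of this length. TGACG was found in 4 of the 7 (Fos, Fosb, Junb and Atf3) and in 17.8% of all promoters, and TGACNTCA in Jun and in 7.49%; every TGACGTCA also counts under both. These 2 motifs were added after the sequences had been seen. The Jun match lies 45 to 38 bases before the start, the Junb match 106 to 102, the Fosb match 60 to 56 and the Atf3 match, on the other strand, 7 to 3. Fosl2 and Jund had no match to either motif. A match is only a description of the letters, and no match says nothing about sites outside this window.

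Egr1, a zinc finger factor induced through ERK and serum response factor, differed most between the lines. Its resting level was 11.86 in mProx, 10.23 in NMuMG and 9.05 in MCT, but 5.51 in EpH4. Stimulated levels were 10.37, 8.44, 9.89 and 5.65. On the deposited scale resting mProx had a signal of 3857 and resting EpH4 one of 42.4. In mProx and NMuMG the level was lower after stimulation, by 2.82-fold and 3.46-fold, whereas in MCT it was higher by 1.78-fold. In EpH4 the change was 0.14, and -0.13 on the values as deposited, at levels close to the dim limit. The mean change in the 3 lines was -0.82 ± 1.44 (SD, n = 3), with a limma adjusted p of 0.527. It moved with each line left out, to -0.33 without NMuMG (adjusted p = 0.849), -0.48 without mProx (0.839) and -1.64 without MCT (0.0252), the last keeping only the 2 lines in which Egr1 was lower. In the 4 lines the mean was -0.58 with an SE of 0.40 (adjusted p = 0.623).

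Atf3, a stress-induced bZIP factor that can repress its own gene, was highest in resting EpH4. There it went from 9.78 to 9.31, while MCT went from 8.56 to 9.03, NMuMG from 8.17 to 8.25 and mProx from 7.26 to 7.45. The change was thus -0.47 in EpH4 and 0.47, 0.08 and 0.18 in the other lines. These signs held on the values as deposited and with arrays scaled to a common trimmed mean. The 3-line mean was 0.24 ± 0.20 (SD, n = 3; limma adjusted p = 0.594), and the 4-line mean of 0.07 turned to -0.03 on the values as deposited.

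**Figure D2:**
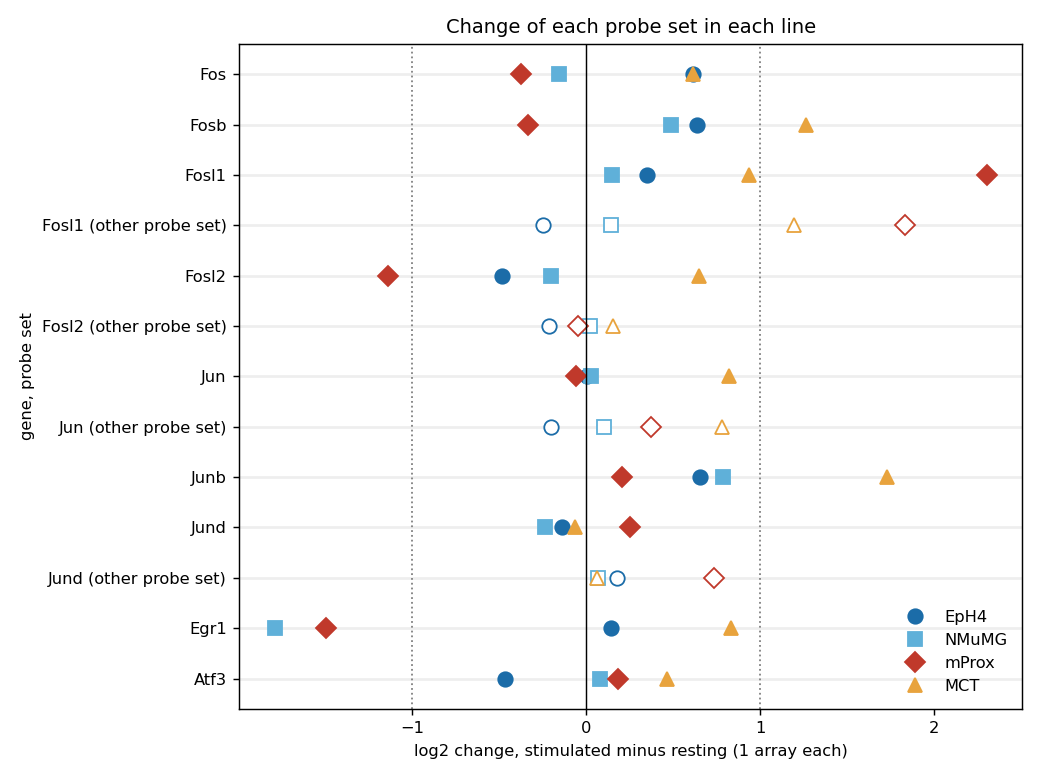
Log2 change, stimulated minus resting (horizontal axis), of each of the 13 probe sets in each line, 1 array per condition; filled symbols are the probe sets that stand for their gene, open symbols the other probe sets, and dotted lines mark a 2-fold change. MCT lies right of 0 for 8 of the 9 genes, and Egr1 in NMuMG (-1.79) and mProx (-1.49) lies farthest to the left.

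Read by line, MCT had the most members higher. There 8 of 9 genes were higher, with Jund the exception, beside 47.6% of all genes in that line. The count was 6 of 9 in EpH4, 5 in NMuMG and 4 in mProx, beside 49.0%, 55.3% and 50.5% of all genes. On the values as deposited it was 8 in MCT, 4 in EpH4, 8 in NMuMG and 4 in mProx. In that setting the arrays share no scale, and the median change of all genes was -0.25, -0.28, 0.35 and -0.11 in the same order. The counts as deposited are therefore no result about the members. Changes of at least 2-fold were seen for Junb and Fosb in MCT (2 of 9, against 5.46% of all genes; the log2 change of Fosb was 0.997 with an offset of 32, just under 2-fold), for Fosl1 higher and Fosl2 and Egr1 lower in mProx (3 of 9, against 5.35%), and for Egr1 in NMuMG (1 of 9, against 5.1%). EpH4 had 0 of 9, against 2.41% of all genes. The tally uses the probe set that stands for each gene. In mProx the other Fosl2 probe set changed by -0.05, and in MCT the other Fosl1 probe set was higher by 1.20, more than 2-fold. With 1 array per condition these counts have no replicate check, and whether the lines differ was tested only in the comparisons that follow.

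The response of EpH4 minus that of the other 3 lines asks how the line marked as resistant differs from them. EpH4 has a single pair of arrays, and its spread is taken to be that of the other 3 lines. Resistance cannot be told apart from any other trait of this line. Atf3 came closest among the members, with a difference of -0.71 and an SE of 0.31 in limma (unadjusted p = 0.0538, adjusted p = 1.00). Fosl1 differed by -0.78 with an SE of 0.72 and Egr1 by 0.96 with an SE of 0.93. None of the 9 members had an unadjusted p under 0.05, against 427 genes (3.4%) of all tested, and the test called 0 genes (0%). For Fosl1 and Egr1 the SE was about as large as the difference itself.

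The kidney response minus the mammary response was 1.37 for Fosl1, the mean change being 1.62 in mProx and MCT and 0.25 in EpH4 and NMuMG. Its SE in limma was 0.42, with an unadjusted p of 0.0130 and an adjusted p of 0.710. The other Fosl1 probe set gave 1.57 (adjusted p = 0.696). The difference depended on which kidney line was kept: without mProx it was 0.69 (adjusted p = 0.659), and without MCT it was 2.06 (adjusted p = 0.0202), each with 1 kidney line. Fosl1 was the 1 member of 9 with an unadjusted p under 0.05, against 752 genes (5.98%), and 0 genes (0%) were called. The difference for the other members lay between -0.11 for Fos and 0.52 for Atf3.

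At rest, Fosl2, Junb and Jun had lower levels in the kidney than in the mammary lines, but none of the 9 members passed the test. Kidney minus mammary was -1.77 for Fosl2 (SE 0.33), -1.68 for Junb (SE 0.38) and -1.06 for Jun (SE 0.36), and for each the 2 mammary arrays lay above the 2 kidney arrays. Their unadjusted p in limma was 0.00301, 0.00710 and 0.0333, and their adjusted p was 0.343, 0.427 and 0.601. The other probe sets of Fosl2 and Jun gave differences of -0.71 and -0.79. For Fosl2 most of that difference came from EpH4, at 8.85, since NMuMG stood at 7.87 beside 7.69 in mProx and 7.62 in MCT. These 3 members of 9 stand beside 917 genes (7.3%) at an unadjusted p under 0.05 and 0 genes (0%) called. With 2 arrays a side, differences between 2 tissues and between any 2 pairs of lines cannot be told apart.

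Resting EpH4 had the lowest Egr1 and the highest Atf3 level of the 4 lines, and neither difference from the other 3 lines passed the test. The Egr1 difference was -4.87, or 29.3-fold lower, with an SE of 1.13 in limma and an adjusted p of 0.367. Atf3 was 1.78 higher with an SE of 0.66 (adjusted p = 0.551). These 2 of 9 members had an unadjusted p under 0.05, against 1120 genes (8.91%), and 1 gene (0.00796%), no member, passed the adjusted threshold. EpH4 has a single resting array here, and its spread is taken to be that of the rest.

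Single resting arrays have no spread of their own. The order of the lines was therefore read against the SD of a difference between 2 arrays left in the 4-line fit. That SD comes from how the changes vary between lines, not from repeat resting arrays. Steps within or beyond 2 SDs are a description and no test of resting levels. For Fosl1, where that SD was 0.63, the step of 2.85 from MCT down to EpH4 exceeded 2 SDs, while NMuMG and MCT, and EpH4 and mProx, did not differ beyond it. Fosl2, Jun and Junb likewise split into the 2 mammary and the 2 kidney lines, by steps of 1.44, 0.71 and 1.36, with no step beyond 2 SDs within either pair. The other Fosl2 probe set did not split this way. Its resting level was 8.85 in EpH4, with NMuMG at 7.87 close to mProx at 7.69 and MCT at 7.62. Egr1 had steps of 1.63 from mProx to NMuMG and 3.55 from MCT to EpH4 beyond 2 SDs of 0.80, and Atf3 had steps of 1.21 below EpH4 and 0.91 above mProx. Jund had steps of 0.36 from NMuMG to EpH4 and 0.79 from EpH4 to mProx beyond 2 SDs of 0.18, and Fos had a step of 0.86 above NMuMG. For Fosb, with steps of at most 0.23, no neighbours differed beyond 2 SDs.

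Genes whose levels tracked the 3 most variable members over the 8 arrays were sought among 8437 genes with a range of at least 1. For Fosl1 these were Slc45a1 (Pearson r = 0.990), Ebna1bp2 (0.987), Mthfd1l (0.985), Ptpn12 (0.975) and Nol9 (0.971). Mthfd1l, a mitochondrial enzyme of one-carbon metabolism, stood at 10.05 and 10.07 in resting NMuMG and MCT and went from 8.32 to 9.88 in mProx. For Egr1 they were Fam13c (0.979), Fnbp1 (0.974), Sowahc (0.974), Oxr1 (0.973) and Pacs2 (0.969), and for Fosl2 AI839979 (0.971), Akt1s1 (0.970), Fam118b (0.968), Zfpl1 (0.965) and Tnrc6c (0.964). The 8 arrays are 4 pairs that share a line, so they are not independent, and these values carry no test.

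Around these factors, genes of the pathway were read from lists, each compared by count and median with all tested genes, of which 51.8% were higher in the 4 lines. In limma, 11.6% of all tested genes, in either direction, had an unadjusted p under 0.05 in the 4 lines. Readouts of the 2 factors were higher for 11 of 11 tested genes, with a median of 0.98. They include the ERK phosphatase gene Dusp4 (0.98), the ETS factor gene Etv5 (1.75), the SMAD repressor gene Skil (0.80) and the phosphatase gene Dusp5 (1.65). No gene of any list passed limma in the 4 lines or in the 3 lines. At an unadjusted p under 0.05 in the 4 lines, 10 of these readouts were higher and 0 lower.

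Upstream, 14 of 20 tested kinases and serum response factor partners were higher, with a median of 0.12. At an unadjusted p under 0.05, 5 were higher and 1 lower, beside 11.6% of all tested genes in either direction. Elk3, an ETS partner of serum response factor, was higher in each line, by 0.32 in EpH4, 0.51 in NMuMG, 0.89 in mProx and 0.86 in MCT (mean 0.65). Map2k1, the ERK kinase MEK1, had a mean of 0.28, the actin-regulated coactivator gene Mrtfa by 0.46, and the p38 kinase gene Mapk14 by -0.23. The EGF receptor gene Egfr, the entry point of the pathway, had a mean of -0.10.

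Among other AP-1 and related bZIP factors, 10 of 21 were higher, with a median of -0.02, and 1 was higher and 1 lower at that level. Maff, a small MAF partner, had a mean of 0.62, with 1.11 in mProx and 0.91 in MCT, and Nfe2l2, the regulator of antioxidant genes, had -0.22. The bZIP gene Maf had -0.50 and Cebpd -0.66, the latter with -2.20 in MCT and 0.69 in EpH4. Of the cofactor and turnover genes 3 of 12 were higher, with a median of -0.13, and 1 was higher and 2 lower at that level. Nab1, a corepressor of EGR proteins, was lower in each line with a mean of -0.26. Fbxw7, a ubiquitin ligase component that targets c-JUN, was higher in each line with a mean of 0.48. The coactivator gene Crebbp had -0.25 and Smad3 -0.22.

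Other immediate early genes were higher for 25 of 28 tested members, with a 4-line median of 0.40. On the values as deposited 23 of 28 were higher, beside 35.4% of all genes in that setting. At an unadjusted p under 0.05, 12 were higher and 0 lower, beside 11.6% of all tested genes in either direction. By line the median was 0.63 in MCT, 0.27 in mProx, 0.23 in NMuMG and 0.05 in EpH4. Ccn2, a matricellular protein gene and SMAD target, was higher by 3.04 in MCT, 1.62 in EpH4, 1.28 in mProx and 0.61 in NMuMG, a mean of 1.64 (limma adjusted p = 0.132). The kinase genes Sgk1 and Pim1 had means of 1.15 and 0.62, and Ier3 had 0.63. Of the EGR relatives, Egr3 had changes of 1.42 in EpH4, 0.55 in NMuMG, 0.21 in mProx and -0.03 in MCT, but it was dim in resting EpH4 and on both NMuMG arrays. Egr2 and Egr4 were under the filter. In mProx, Egr2 stood at 5.59 at rest and a dim 5.08 after stimulation. It went from a dim 5.05 to 5.40 in NMuMG and from 5.40 to 6.17 in MCT, and was dim on both EpH4 arrays. Egr4 had changes of 0.49 in EpH4, 0.63 in NMuMG, 0.25 in mProx and -0.13 in MCT.

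Known AP-1 or EGR1 targets were higher for 15 of 18 tested genes in the 4 lines, with a median of 0.64, and for 13 in the 3 lines. By line the count higher was 15 in EpH4, 13 in NMuMG, 11 in mProx and 13 in MCT, beside 49.0%, 55.3%, 50.5% and 47.6% of all genes. At an unadjusted p under 0.05 in the 4 lines, 8 were higher and 1 lower, beside 11.6% of all tested genes in either direction. Pdgfb, a platelet-derived growth factor chain, was higher by 1.37 in EpH4, 0.83 in NMuMG, 0.68 in mProx and 0.79 in MCT. Timp1, an inhibitor of matrix metalloproteases, had a mean of 0.80 and the prostaglandin synthase gene Ptgs2 one of 1.08. The limma adjusted p of these 3 was 0.0779, 0.0870 and 0.132. Mmp10, a stromelysin gene, was dim in each resting line and stood at 8.03 in MCT, 6.49 in mProx, 6.08 in NMuMG and a dim 4.57 in EpH4 after stimulation. Mmp10 and Mmp3, also dim in each resting line, passed the filter only through stimulated arrays. Their places in the counts higher, among them the 8 and the 15 of the 4 lines, are therefore no support for the list. The same holds for the place of Il11 among the 15 of the 4 lines. It reached 7.18 in stimulated NMuMG and was above dim at rest only in MCT, at 5.97. Several of these genes also answer to SMADs or other factors, and their link to the members was not tested.

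**Figure D3:**
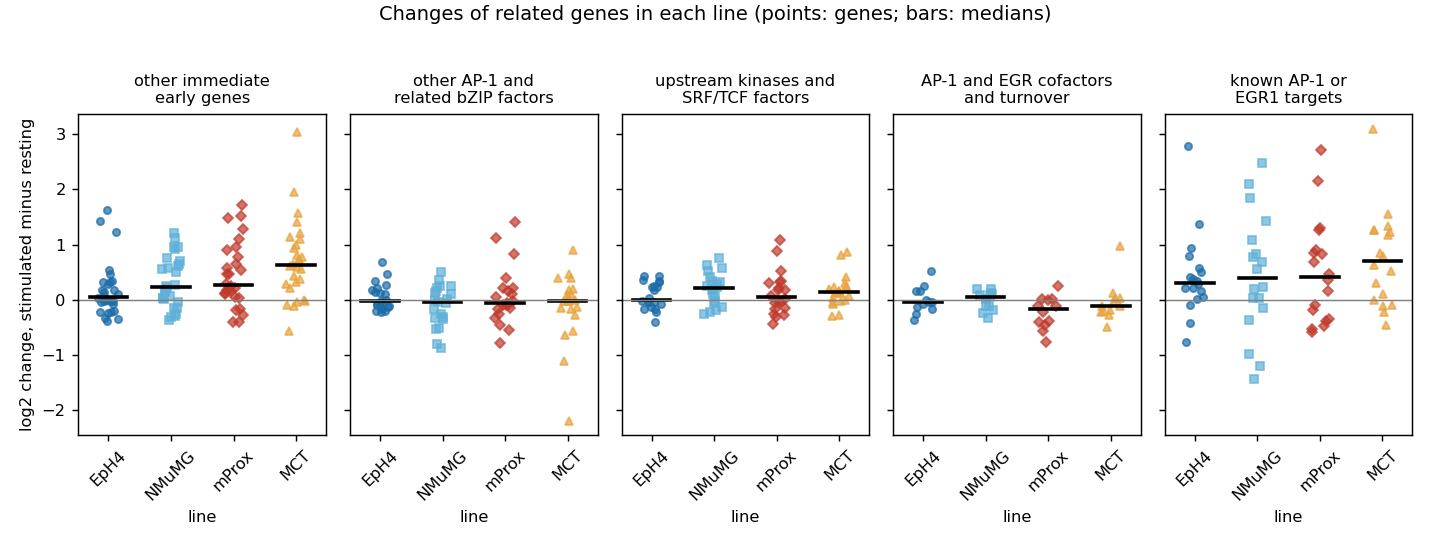
Log2 change, stimulated minus resting (vertical axis), of each tested gene (points) of 5 related gene lists in each line (horizontal axis), with black bars at the medians; positions within a column are spread for legibility. The medians of other immediate early genes run from 0.05 in EpH4 to 0.63 in MCT, and those of other bZIP factors lie between -0.07 and -0.02 in the 4 lines.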

How the data were processed

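Signals came from 8 Affymetrix Mouse Genome arrays, 4 resting and 4 stimulated. The authors deposited 1 linear intensity per probe set and array, computed with MAS5 per the submitters' processing notes. Version, scaling target and build were not given in the sources used here. The number of arrays limits the precision.

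After leaving out 64 control probe sets, an offset of 10.6 (the 25th percentile of positive signals) was added, log2 taken and the arrays quantile-normalized, which removes overall differences between arrays. Each gene was represented by its probe set of highest mean level, with _s_at and _x_at probe sets used only where no other existed. Symbols came from the platform table and all 13 member probe sets matched RefSeq by Entrez identifier. Genes whose mean level reached the 40th percentile, 12570 in all, entered linear models (R 4.3.3, limma 3.58.1, lmFit and eBayes with an intensity trend, Benjamini-Hochberg, threshold 0.05), with the cell line as a block. Pairing comes from the line names; the 2 arrays of a line deviated together (r = 0.905, 0.874, 0.826 and 0.811). The fits were run on simulated arrays with the same planted change in every line of a group. This does not cover changes that differ between lines, as those of the members do. Alternatives changed the array scaling, offset, filter, probe set rule, trend, block and lines kept; the other probe sets, a rule that treats only _x_at as cross-hybridising, and 2 promoter motifs were added after seeing the data.

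The members, gene lists and comparisons were chosen with earlier results of these data known. Named genes are all members, up to 4 genes per list with the smallest p in the 4-line response, and 5 tracking genes for each of the 3 most variable members; Egfr, Egr2, Egr3 and Egr4 were added by choice. List genes with no probe set in the tables are not analysed here.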

Additional observations from a re-analysis of the deposited data

Results flagged for a closer look

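Of 27 sets of 4 values examined (resting level, stimulated level and change of each of the 9 genes over the 4 lines), 1 held a value far from the others by Dixon's criterion. The Jun change in MCT, 0.82, was separated from the nearest line by 0.905 of the whole range, above the critical value for groups of 4. Chance gives such a separation in about 1 in 20 groups. The other Jun probe set also had its highest change in MCT, 0.78, but with mProx at 0.37 between it and the rest. No replicate array of MCT was analysed here to check either value.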

How the results depend on the processing

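The call counts were small and moved with the processing. On the values as deposited the test called 236 genes in the 4 lines, 210 in the 3 lines, 4 for the EpH4 difference, 20 for kidney minus mammary responses, 6 for resting kidney against mammary and 22 for resting EpH4. Arrays scaled to a common trimmed mean gave 11 in the 4 lines and 0 for resting EpH4. Offsets of 1 and 32 gave 1 and 7 in the 4 lines. The 3-line count was 0 with no filter, 0 with no intensity trend and 0 with no replicate block, and the resting EpH4 count 0 with no trend and 3 with every probe set tested. Leaving out a line gave 0 to 14 calls in the 4 lines (14 without EpH4), 9 to 88 in the 3 lines (9 without mProx, 88 without NMuMG), 0 to 74 for kidney minus mammary (25 without mProx, 74 without MCT), and 0 for resting EpH4 without mProx, MCT or NMuMG. The causes were not tested. A fit without EpH4 was not possible for the 3-line response, which leaves that line out, or for the 2 comparisons of EpH4 with the rest.

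Of 27 member results refitted in 369 settings, 347 kept their direction and their side of the threshold. This count is no measure of robustness. Changing the filter, trend or block, testing every probe set, or treating only _x_at as cross-hybridising left each value itself unchanged, so its direction could not turn. No member result was called in the main fit, so keeping the side meant remaining uncalled. A call appeared in 5 settings, those of Fosl1, Junb and Egr1 given above. The sign turned in 17, and none of these values was called. With arrays scaled to a common trimmed mean the Jund value was 0.00016 in the 4 lines and 0.022 in the 3, and the Fos value -0.052 in the 3. On the values as deposited Atf3 had -0.032 in the 4 lines, and Fos -0.058 and Jund 0.028 in the 3. The other probe sets, an alternative chosen after seeing the data, gave 0.26 and 0.29 for Jund and 0.043 for Fosl2 in the 3 lines. Leaving out a line gave ranges of -0.0071 to 0.28 for Jun, -0.15 to 0.018 for Jund and -0.068 to 0.24 for Atf3 in the 4 lines, and of -0.27 to 0.23 for Fos, -0.67 to 0.22 for Fosl2, -0.014 to 0.42 for Jun and -0.15 to 0.10 for Jund in the 3 lines.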
